A study of Homo sapiens with 43 samples.

Results

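The genes SNAP47, PFDN1, SCAP, PTBP2, MAP3K7 and ENAH were followed through peak lists of protein-bound RNA from HEK293T, a cell line of human embryonic kidney. Their peaks were chosen by position, as every deposited peak that overlapped the hg19 window of 1 of the 6 genes by at least 1 nt on the gene's own strand. This rule found 806 of the 1430241 peaks in 25 libraries. The genes themselves had been picked from RBFOX2 peaks of the same lists, so RBFOX2 counts and folds in them are a description and carry no test. Whether single sites lie in an intron or an exon was not analysed here, and the name of intronic targets was therefore not checked.

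The lists came from eCLIP, in which RNA is crosslinked to protein with ultraviolet light (254 nm, 400 mJ/cm2), trimmed with RNase I, immunoprecipitated, cut from a gel region of 75 kDa above the protein and sequenced. The series holds 43 samples, of which 25 are immunoprecipitations with a peak list and 18 are inputs that entered here only through the authors' folds. RBFOX2 V5 is the library of HEK293T cells with V5-tagged RBFOX2, made with an antibody against V5, and RBFOX2 wild type is that of untagged cells, made with an antibody against RBFOX2 itself. The 9 libraries of other RNA-binding proteins (RBPs) were LIN28 V5, HNRNPC V5 of isoform 1 and of isoform 2, FMR1 FLAG and DGCR8 FLAG, with the wild-type libraries of LIN28, HNRNPC, FMR1 and DGCR8. A further 14 libraries named FLAG-only or V5-only, 7 each, were cut from 7 overlapping gel ranges between 25 and 250 kDa and name no RBP. The series title gives CRISPR/Cas9 integration at the endogenous genes as the source of the tags. Clone numbers and the tag state of the tag-only cells are not given in the sources used here. Since there was a single library for each RBP and tag state, no value has a replicate error and no difference between libraries was tested.

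RBFOX2 is a splicing regulator with a single RNA recognition domain that prefers the short motif UGCAUG, usually in introns beside alternative exons. Bound downstream of an exon it tends to favour inclusion, and bound upstream it tends to favour skipping. ENAH, an actin regulator of the Ena/VASP family, and MAP3K7, the kinase also called TAK1, carry alternative exons known to respond to RBFOX2 in epithelial and mesenchymal cells. PTBP2 is a splicing repressor of neurons and itself a gene with regulated exons. SNAP47 is a SNARE-related protein of membrane fusion, PFDN1 a subunit of the cochaperone prefoldin, and SCAP the escort protein that carries sterol-regulated transcription factors out of the endoplasmic reticulum.

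A peak was called significant where its −log10 p and its log2 fold over input both reached 3, which for the fold is an 8-fold enrichment. These values were the authors' own. In the 6 genes 27 of 33 RBFOX2 V5 peaks were significant, or 81.8% (95% Wilson interval 65.6% to 91.4%), where 4.0% of the whole RBFOX2 V5 list was. In RBFOX2 wild type 35 of 47 peaks were significant, or 74.5% (60.5% to 84.7%), where 7.03% of the whole list was. Since the genes were picked for RBFOX2 peaks, nothing is read from the distance between these shares and those of the lists. The lists held 47459 peaks in RBFOX2 V5 and 43375 in RBFOX2 wild type, and between 25723 and 100860 over all libraries. Read totals were not used, so depth in reads is unknown, and the intervals cover counting error over peaks only. They treat peaks as independent, which neighbouring peaks and peaks of overlapping gel ranges are not, so they may be too narrow.

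Most significant RBFOX2 peaks lay in short runs. Merging peaks of either RBFOX2 library that were at most 50 nt apart left 19 sites, of which 8 held significant peaks of both libraries, 3 only of RBFOX2 V5 and 8 only of RBFOX2 wild type. The 8 shared sites were 42.1% (23.1% to 63.7%), where 649 of the 3325 sites of the whole lists, or 19.5%, were shared. Single peaks made up 11 of the 19 sites, or 57.9%, and 74.7% of the sites of the whole lists. In 5 of the 6 genes the outermost significant peaks were between 218 and 5517 nt apart, in windows of 52688 to 102120 nt. ENAH was the exception, with a span of 121849 nt in its window of 166311 nt. That span rests on a single RBFOX2 wild-type peak of 11 nt at 225806271 to 225806281. The other significant ENAH peaks lay between 225684433 and 225692545. Of the significant peaks in the 6 genes, 92.6% in RBFOX2 V5 and 88.6% in RBFOX2 wild type had another significant peak of the same library within 1 kb, against 51.9% and 66.6% in the whole lists of RBFOX2 V5 and RBFOX2 wild type. Since the genes were picked for RBFOX2 peaks of these lists, nothing is read from the distance of these shares, or of the share of common sites, from the lists.

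**Figure D1:**
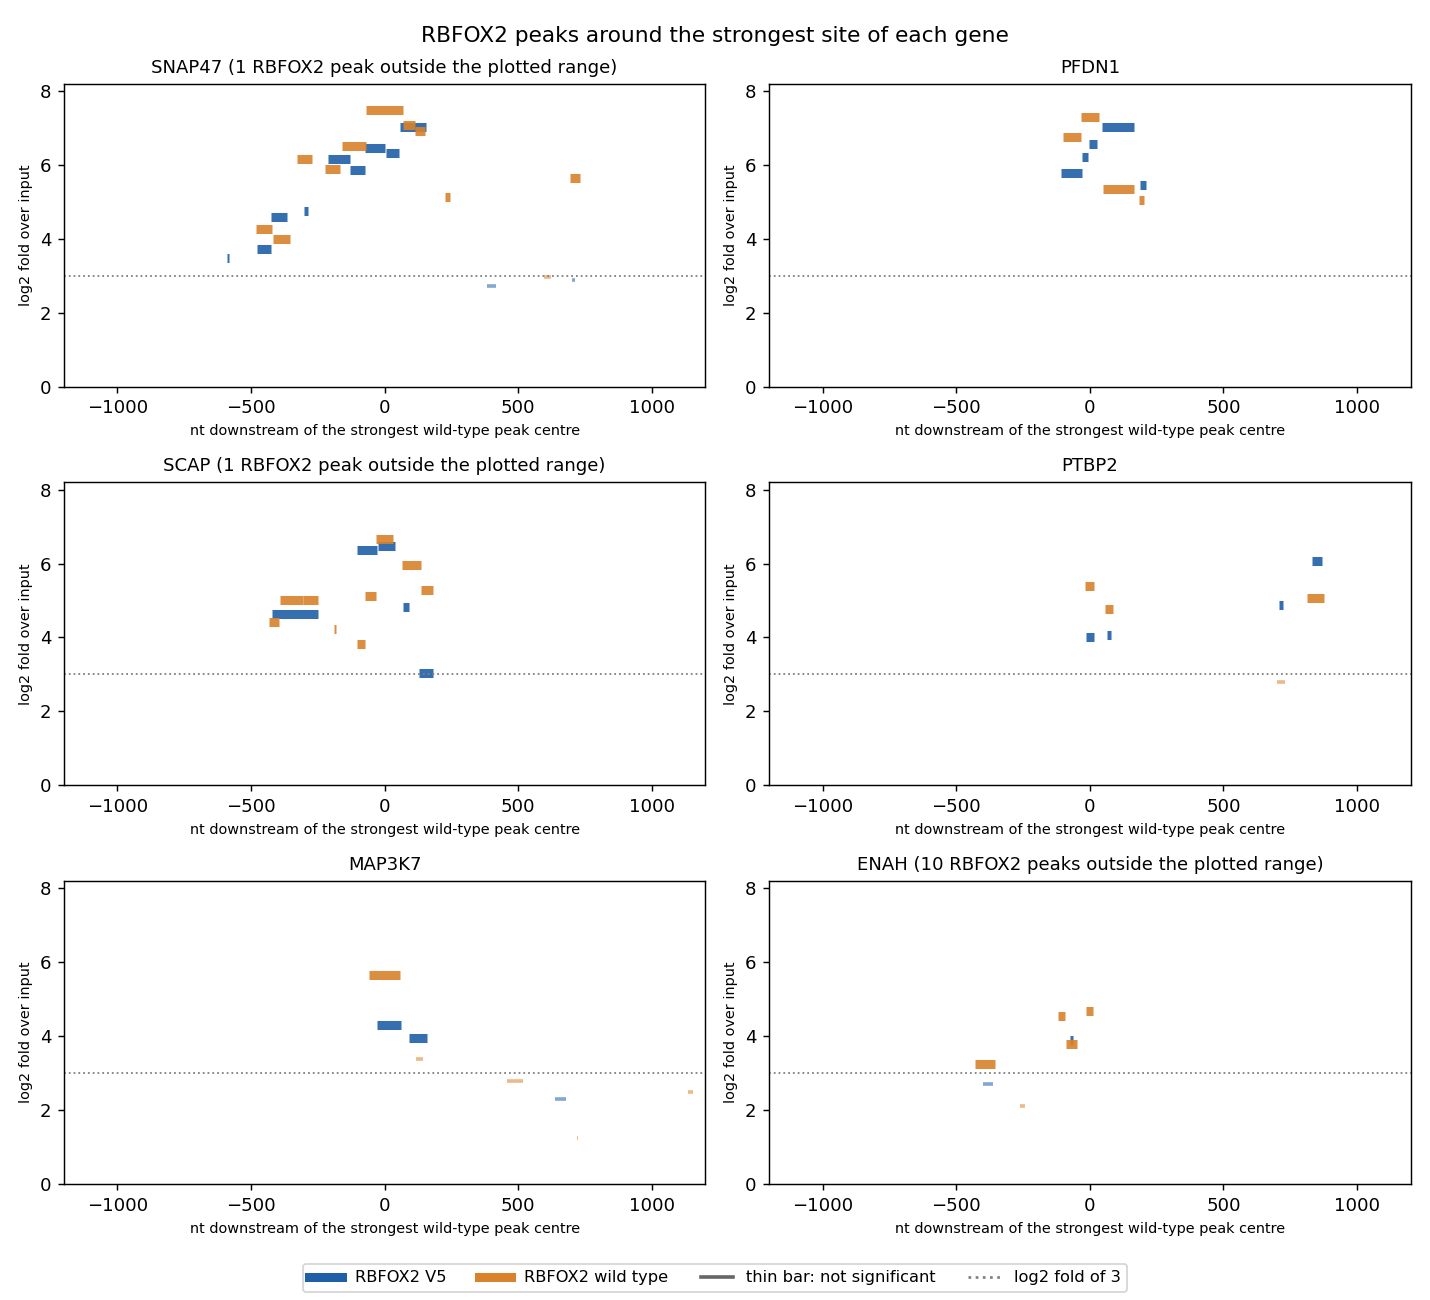
Log2 fold over input (y axis) of each RBFOX2 peak around the centre of the strongest RBFOX2 wild-type peak of its gene (x axis, nt in the direction of transcription), with each bar as long as its peak, blue for RBFOX2 V5 and orange for RBFOX2 wild type. Both libraries have runs of peaks at the strongest site of SNAP47, PFDN1 and SCAP. In SNAP47 they reach log2 folds of 7.01 in RBFOX2 V5 and 7.49 in RBFOX2 wild type. Of the 19 sites in the 6 genes, 8 have significant peaks of both libraries. ENAH has the lowest maxima of the 6 genes, 3.88 in RBFOX2 V5 and 4.67 in RBFOX2 wild type.

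SNAP47 had the longest site of the 6 genes, with the highest fold in RBFOX2 wild type and, after PFDN1, the second highest in RBFOX2 V5. The gene lies on the plus strand of chromosome 1, and the site ran from position 227954942 to 227955576, a length of 635 nt. It was the 6th longest of the 3325 sites made in the same way from the whole RBFOX2 lists, whose median length was 61 nt, and held 16 significant peaks, 8 of each library. From 5′ to 3′ the 8 RBFOX2 V5 peaks had log2 folds of 3.73, 4.60, 4.76, 6.16, 5.85, 6.47, 6.32 and 7.01. The 8 RBFOX2 wild-type peaks had log2 folds of 4.26, 4.0, 6.16, 5.89, 6.50, 7.49, 7.08 and 6.93. Both antibodies thus gave low folds at the 5′ end of the site and their highest folds in its 3′ part. The strongest peak ranked 4th by fold among the 1900 significant peaks of RBFOX2 V5 and 4th among the 3049 of RBFOX2 wild type.

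The other SNAP47 sites were single peaks. At 227954831 to 227954838, upstream of the long site, an 8-nt peak was significant in RBFOX2 V5 with a log2 fold of 3.47 and had no RBFOX2 wild-type peak. Downstream, RBFOX2 wild type alone had significant peaks at 227955648 to 227955667 (log2 fold 5.12), 227956115 to 227956155 (5.64) and 227957009 to 227957046 (3.82). At the middle one of these RBFOX2 V5 had a called peak just under the threshold, with a log2 fold of 2.88. Between them each library had 1 more called peak without significance, of 2.71 in RBFOX2 V5 and 2.96 in RBFOX2 wild type. The smaller downstream sites were therefore significant with the antibody against RBFOX2 and not with that against V5.

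All PFDN1 peaks fell in a single site. The gene lies on the minus strand of chromosome 5, and the site ran from 139646453 to 139646768, 316 nt or 0.544% of the window. Each of the 5 RBFOX2 V5 peaks and 4 RBFOX2 wild-type peaks called in the gene was significant. From 5′ to 3′, which is from high to low positions, RBFOX2 V5 had log2 folds of 5.78, 6.21, 6.58, 7.03 and 5.47, and RBFOX2 wild type had 6.75, 7.31, 5.36 and 5.04. The libraries placed their maximum in neighbouring peaks. RBFOX2 V5 was highest at 139646495 to 139646616, where its log2 fold of 7.03 stood above the 5.36 of the RBFOX2 wild-type peak with nearly the same borders, and RBFOX2 wild type was highest one peak upstream, at 139646628 to 139646695. These maxima ranked 3rd by fold in the RBFOX2 V5 list and 7th in the RBFOX2 wild-type list.

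In SCAP, on the minus strand of chromosome 3, the significant peaks lay mainly in 2 neighbouring sites near the 3′ end of the window. The stronger one, at 47457311 to 47457598, held 4 RBFOX2 V5 and 5 RBFOX2 wild-type peaks. From 5′ to 3′ its log2 folds were 6.37, 6.47, 4.82 and 3.04 in RBFOX2 V5, and 3.82, 5.12, 6.66, 5.96 and 5.27 in RBFOX2 wild type. The highest peaks of the site overlapped, with 6.47 at 47457456 to 47457519 in RBFOX2 V5 and 6.66 at 47457463 to 47457524 in RBFOX2 wild type. At the 5′ end of the site RBFOX2 V5 was higher, with 6.37 at 47457520 to 47457597 against 3.82 and 5.12 in overlapping RBFOX2 wild-type peaks. At its 3′ end RBFOX2 wild type was higher, with 5.27 against 3.04 in RBFOX2 V5. This 3′ gap was the widest of the 23 pairs in the 6 genes, each V5 peak being paired by most shared bases.

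The second SCAP site, at 47457741 to 47457926, was 1 broad peak of 176 nt in RBFOX2 V5 with a log2 fold of 4.63 and 3 peaks in RBFOX2 wild type with 4.42, 5.02 and 5.00. Its RBFOX2 V5 peak had a −log10 p of 48.0, and its RBFOX2 wild-type peaks reached 39.5. RBFOX2 wild type alone had 2 small sites, at 47457676 to 47457681 with a log2 fold of 4.24 and at 47462812 to 47462827 with 3.24. All 15 RBFOX2 peaks called in SCAP were significant.

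PTBP2, on the plus strand of chromosome 1, had 3 sites within 895 nt. At 97271354 to 97271457 each library had 2 peaks, with log2 folds of 4.0 and 4.05 in RBFOX2 V5 and 5.41 and 4.77 in RBFOX2 wild type. At 97272183 to 97272248 the order was the other way, with 6.08 in RBFOX2 V5 and 5.06 in RBFOX2 wild type. By fold the 2 libraries therefore disagreed on which PTBP2 site was the stronger. By −log10 p RBFOX2 wild type was higher at the second of these sites, with 15.7 against 11.6 and 7.11 at the first. Between these 2 sites, at 97272079 to 97272095, RBFOX2 V5 had a significant peak with a log2 fold of 4.88 and RBFOX2 wild type a called peak of 2.80, below the fold threshold. Outside these sites no RBFOX2 peak was called in the gene.

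MAP3K7, on the minus strand of chromosome 6, had 1 site, at 91254342 to 91254559. RBFOX2 V5 had 2 significant peaks there with log2 folds of 4.30 and 3.94, the first at rank 504 in its list, and RBFOX2 wild type had 1 with 5.64, at rank 117 in its list. The second RBFOX2 V5 peak overlapped a wild-type peak whose log2 fold of 3.37 passed the fold threshold but whose −log10 p of 2.18 did not. A further V5 peak and 3 wild-type peaks were called within 1 kb downstream, with log2 folds of 2.30 in RBFOX2 V5 and of 2.79, 1.24 and 2.5 in RBFOX2 wild type. MAP3K7 thus held 1 significant stretch, higher in RBFOX2 wild type, with called peaks downstream of it that did not reach significance.

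ENAH had the weakest and most scattered RBFOX2 signal of the 6 genes. On the minus strand of chromosome 1, 2 of 5 called peaks were significant in RBFOX2 V5 and 6 of 12 in RBFOX2 wild type, and its best ranks by fold were 889 and 541 in those lists. The only site with significant peaks of both libraries was 225690687 to 225690819, with a log2 fold of 3.88 in RBFOX2 V5 and of 4.56, 3.79 and 4.67 in RBFOX2 wild type. The RBFOX2 V5 peak there passed the p threshold narrowly, with a −log10 p of 3.03. Beside it, at 225691056 to 225691129, RBFOX2 V5 had a called peak of 2.69, under the fold threshold, and RBFOX2 wild type a significant one of 3.25.

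The remaining ENAH sites were single peaks. RBFOX2 V5 had 3.30 at 225684433 to 225684475, where RBFOX2 wild type had 2.36 with a −log10 p of 9.12. RBFOX2 wild type had 3.16 at 225692529 to 225692545 and 4.0 at 225806271 to 225806281, where RBFOX2 V5 had no peak. RBFOX2 wild type also had called peaks without significance, of 2.12 at 225690941 to 225690961 and of 2.77 at 225692607 to 225692644. Around the site at 225684433 both libraries had further called peaks, with log2 folds of 1.49 and 2.39 in RBFOX2 V5 and between 1.42 and 2.01 in RBFOX2 wild type. Of the 5 ENAH sites, 4 were thus significant in 1 library and not in the other.

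Whether the tag antibody found the peaks seen with the antibody against RBFOX2 was read from overlaps of at least 1 nt. Of the significant RBFOX2 V5 peaks in the 6 genes 23 of 27 overlapped a significant RBFOX2 wild-type peak, or 85.2% (67.5% to 94.1%), where 46.6% of the whole V5 list did. In the other direction 25 of 35 significant RBFOX2 wild-type peaks overlapped a V5 peak, or 71.4% (54.9% to 83.7%), where 29.6% of the whole wild-type list did. The genes were chosen with the RBFOX2 values of these lists known, so these shares are a description and were not tested against the lists. When at least 50% of both peaks had to be shared, 59.3% of RBFOX2 V5 and 45.7% of RBFOX2 wild-type peaks overlapped.

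The overlap differed between genes. All 5 RBFOX2 V5 and all 4 RBFOX2 wild-type peaks overlapped in PFDN1. The counts for RBFOX2 V5 and RBFOX2 wild type were 8 of 9 and 8 of 11 in SNAP47, 5 of 5 and 8 of 10 in SCAP, and 3 of 4 and 3 of 3 in PTBP2. They were 1 of 2 and 1 of 1 in MAP3K7, and 1 of 2 and 1 of 6 in ENAH. ENAH was the gene with the lowest share in RBFOX2 wild type.

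Folds at overlapping peaks were compared by pairing each significant RBFOX2 V5 peak with the significant RBFOX2 wild-type peak that shared the most bases with it. In the 23 pairs RBFOX2 V5 was higher in 7 and lower in 16, with a median log2 difference (V5 minus wild type) of −0.65 and a range of −2.24 to 1.67. Over all 886 pairs of the 2 lists RBFOX2 V5 was lower in 557 and the median difference was −0.31. In the 6 genes 12 of the 23 pairs, and in the whole lists 65.0% of pairs, differed by at most 1 log2 unit. Some wild-type peaks entered 2 pairs, and neighbouring peaks of a site are not independent.

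**Figure D2:**
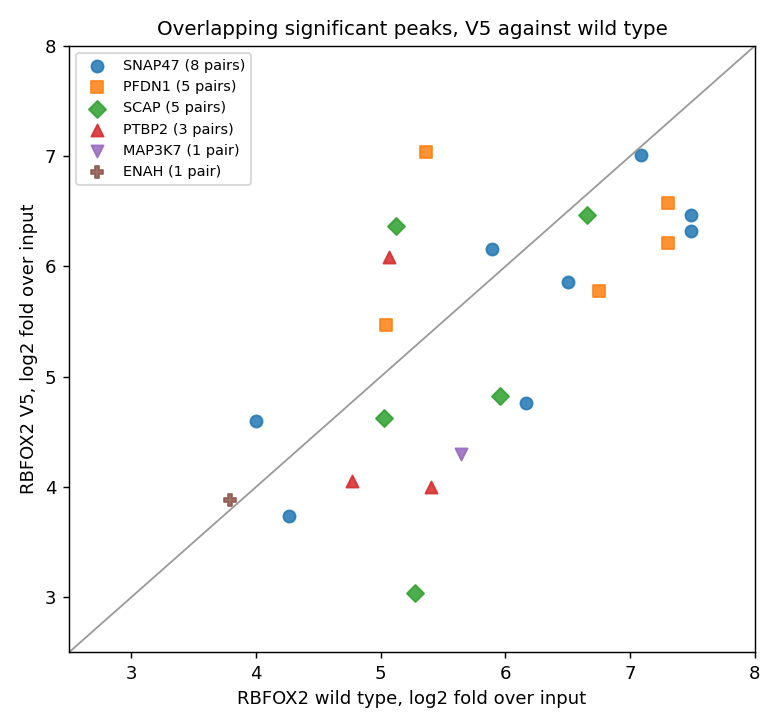
Log2 fold over input of the 23 overlapping pairs of significant peaks, RBFOX2 V5 on the y axis and RBFOX2 wild type on the x axis, with a marker per gene and a line where both would be equal. A total of 16 points lie under the line and 7 above it, and the PFDN1 pair farthest above it has 7.03 in RBFOX2 V5 and 5.36 in RBFOX2 wild type.

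Peak borders were close in many pairs. In the 6 genes 14 of the 23 pairs began within 10 nt of each other in genome coordinates and 13 ended within 10 nt, or 60.9% and 56.5%. In the whole lists 54.6% of pairs began and 53.6% ended within that distance. In PFDN1 4 of the 5 pairs began and 4 ended within it. The median width of significant peaks in the 6 genes was 53 nt in RBFOX2 V5, between 8 and 176 nt, and 43 nt in RBFOX2 wild type, between 6 and 139 nt.

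The 6 genes covered most of the range of RBFOX2 enrichment. Their significant peaks had a median log2 fold of 4.88 in RBFOX2 V5 and 5.06 in RBFOX2 wild type, and the whole lists of significant peaks had 3.88 and 3.91. Among the 100 peaks of highest fold in each list, 13 of RBFOX2 V5 and 10 of RBFOX2 wild type lay in the 6 genes. In RBFOX2 V5 these came from SNAP47, PFDN1, SCAP and PTBP2, and in RBFOX2 wild type from SNAP47, PFDN1 and SCAP. The 6 genes held 1.42% of all significant peaks in RBFOX2 V5 and 1.15% in RBFOX2 wild type. As the genes were picked for RBFOX2 peaks of these lists, nothing is read from their ranks or their higher medians. At the threshold, the lowest significant folds were 3.04 in RBFOX2 V5, in SCAP, and 3.16 in RBFOX2 wild type, in ENAH. Just below it lay the SNAP47 peaks of 2.88 in RBFOX2 V5 and 2.96 in RBFOX2 wild type.

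**Figure D3:**
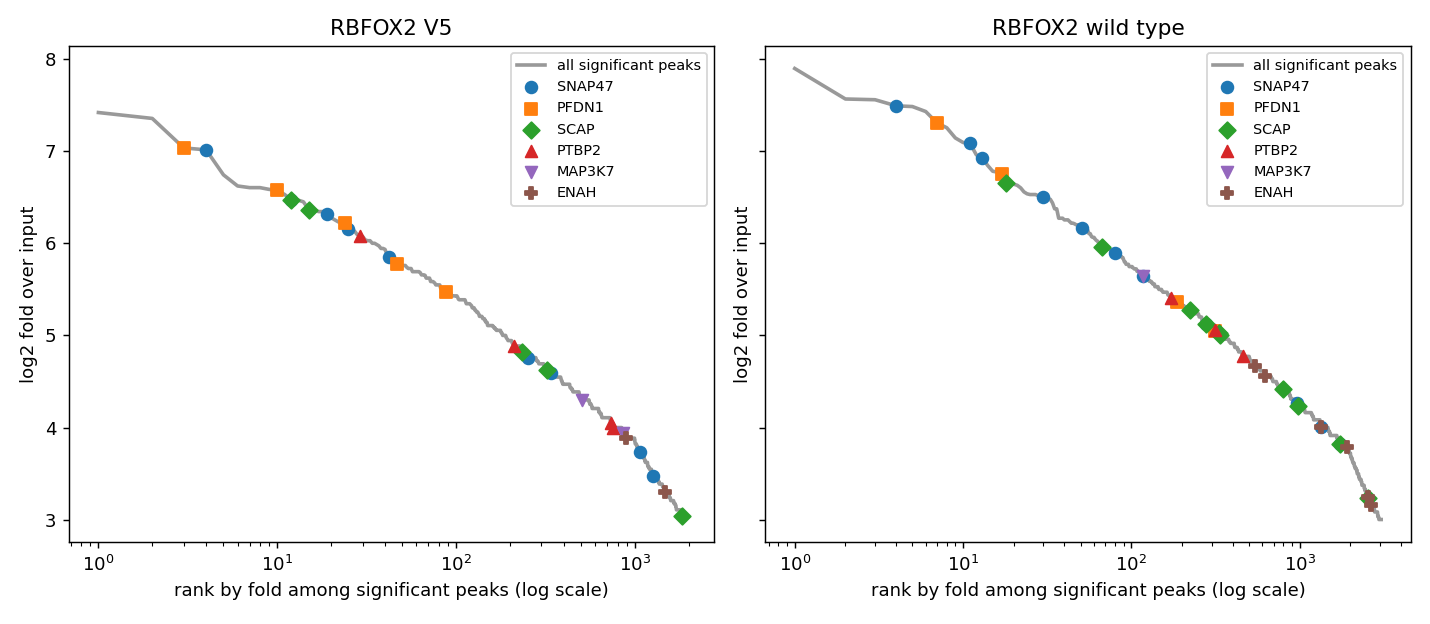
Log2 fold over input (y axis) against rank by fold (x axis, log scale) of the significant peaks of RBFOX2 V5 (left, 1900 peaks) and RBFOX2 wild type (right, 3049 peaks), with the peaks of each gene marked on the grey line of all peaks. SNAP47, PFDN1 and SCAP reach the first 20 ranks in both libraries, and ENAH begins at rank 889 in RBFOX2 V5 and 541 in RBFOX2 wild type.

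Many of these peaks had the same deposited −log10 p. Of the significant peaks in the 6 genes, 12 of RBFOX2 V5 and 13 of RBFOX2 wild type shared a −log10 p of 15.7. It was a ceiling for part of the authors' values, shared by 126 and 232 peaks over those whole lists. A PFDN1 peak of RBFOX2 wild type with a log2 fold of 5.36 had a −log10 p of 42.4, above that ceiling, while its neighbour with 7.31 was at the ceiling. The −log10 p therefore does not rank peaks at the ceiling against those above it. Folds recurred as well. Of the significant peaks in the 6 genes 18 in RBFOX2 V5 and 27 in RBFOX2 wild type had a log2 fold found again, to 6 decimals, in their own list. The SNAP47 and SCAP peaks of 6.47 in RBFOX2 V5 are an example.

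On the significant RBFOX2 peaks almost nothing was called in the other 23 libraries. Of the 62 significant RBFOX2 peaks in the 6 genes, 60 overlapped no called peak of any other RBP or tag-only library, whatever its fold. Exactly 1 of the 27 RBFOX2 V5 peaks and 1 of the 35 RBFOX2 wild-type peaks had such an overlap, where 33.2% of the whole V5 list and 38.8% of the whole wild-type list did. The V5 peak was the ENAH site at 225684433, overlapped by peaks of FMR1 FLAG (log2 fold 1.05) and LIN28 V5 (2.64). The wild-type peak was the SNAP47 site at 227956115, overlapped by peaks of HNRNPC wild type (1.73), FLAG-only at 100 to 175 kDa (3.46, with a −log10 p of 2.02) and V5-only at 50 to 125 kDa (1.25). None of these 5 overlapping peaks was significant, and the difference from the lists was not tested. Since the genes were picked for RBFOX2 peaks of these lists, nothing is read from that difference. Neighbouring peaks of a site are also not independent. The significant RBFOX2 peaks of SNAP47's long site and of PFDN1, SCAP, PTBP2 and MAP3K7 overlapped no other called peak. Gaps between the peaks of a site were not searched.

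**Figure D4:**
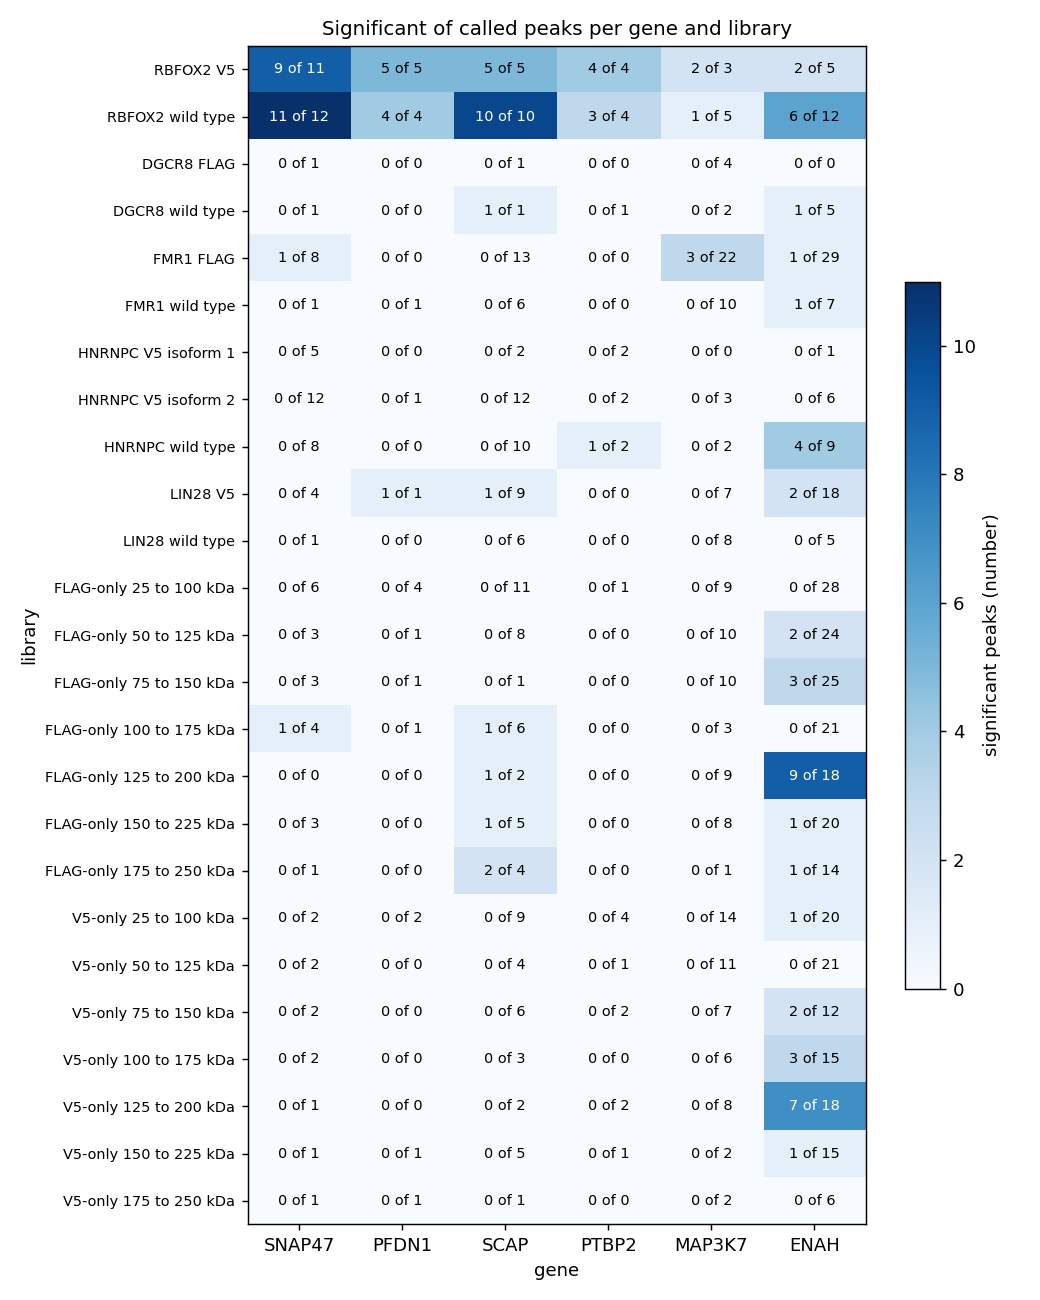
Number of significant peaks of all called peaks for each gene (columns) in each of the 25 libraries (rows), with darker blue for more significant peaks. The top 2 rows, RBFOX2 V5 and RBFOX2 wild type, have significant peaks in each gene, and outside them numbers above 3 occur only in ENAH.

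Elsewhere in the same genes the other libraries did call peaks, and few of them were significant. The 9 libraries of other RBPs had 17 significant of 249 called peaks, or 6.83% (4.31% to 10.7%), where 6.91% of their lists was significant. FLAG-only libraries had 22 of 265, or 8.30% (5.55% to 12.2%), where 7.76% of their lists was. V5-only libraries had 14 of 212, or 6.60% (3.97% to 10.8%), where 3.14% of their lists was. The shares for other RBPs and FLAG-only are near their background and are no result about these genes. All of the V5-only peaks lay in ENAH, and 7 of the 14 came from the range of 125 to 200 kDa, which held the most significant peaks of any V5-only range over the genome. Without that library V5-only had 7 of 181, or 3.87% (1.89% to 7.77%), where 1.82% of the lists was, and FLAG-only without its own library of that range had 12 of 236, or 5.08%, where 5.78% was.

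Among single RBPs, HNRNPC, which coats nascent transcripts at uridine-rich stretches, had significant peaks in these genes only in its wild-type library. HNRNPC V5 isoform 1 had 0 significant of 10 called peaks in the 6 genes and isoform 2 had 0 of 36, where 0.760% and 1.97% of those lists were significant. Both counts of 0 are near the shares of their lists and are no result about these genes. HNRNPC wild type had 5 of 31, where 2.15% of its list was. Of these 5 peaks 4 lay in ENAH, with log2 folds of 3.03, 3.22, 3.01 and 3.64, and 1 in PTBP2, with 3.56. The difference between the HNRNPC libraries was not tested.

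FMR1, the translational regulator of the fragile X syndrome, had 5 significant of 72 called peaks in FMR1 FLAG, where 17.2% of the list was significant, and 1 of 25 in FMR1 wild type, where 5.23% was. The FMR1 FLAG peaks were 3 in MAP3K7 (log2 folds of 3.46, 3.46 and 3.80), 1 in SNAP47 (3.61) and 1 in ENAH (3.23). The MAP3K7 peaks lay between 15288 and 26863 nt upstream of the nearest significant RBFOX2 peak. LIN28, which binds microRNA precursors as well as messenger RNAs, had 4 of 39 in LIN28 V5, where 10.6% was, among them the only significant peak of a library other than RBFOX2 in PFDN1 (3.53), which lay 21124 nt from the RBFOX2 site, and 1 peak in SCAP (3.10). LIN28 wild type had 0 of 20, where 4.73% was. DGCR8, a cofactor of microRNA processing, had 0 of 6 in DGCR8 FLAG, where 1.78% was, and 2 of 10 in DGCR8 wild type, where 4.16% was.

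None of the 53 significant peaks of the other libraries overlapped a significant RBFOX2 peak. Over the whole lists 0.586% of such peaks did, so 0 of 53 is near the background and is no result about these genes. By distance, 3 lay within 1 kb of one, all in ENAH, and the median distance was 8029 nt. In SCAP the nearest was 1159 nt away and in PTBP2 6996 nt. In SNAP47 the distances were 11335 and 19145 nt. The closest of all was a LIN28 V5 peak in ENAH, 344 nt from the RBFOX2 V5 site at 225684433, with a log2 fold of 4.04.

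ENAH, the longest of the 6 windows, was also the gene with the most tag-only peaks. In the order of the gel ranges from 25 to 100 kDa up to 175 to 250 kDa, FLAG-only libraries had 0, 2, 3, 0, 9, 1 and 1 significant peaks there and V5-only libraries had 1, 0, 2, 3, 7, 1 and 0. The significant shares of the FLAG-only lists in the same order were 1.21%, 3.75%, 6.70%, 6.43%, 22.1%, 11.5% and 6.86%. Those of the V5-only lists were 0.555%, 1.10%, 2.69%, 1.92%, 11.5%, 3.10% and 1.86%. Both antibodies had their highest ENAH number, and their highest share over the list, in the range of 125 to 200 kDa. The labels give 1 input per gel range and none by antibody, so the FLAG-only and V5-only values of a range may not be independent. In the other ranges FLAG-only and V5-only libraries overlapped, with 0 to 3 peaks each. The share of the 150 called FLAG-only peaks in ENAH that were significant was 10.7% and that of the 107 V5-only peaks 13.1%. Without the range of 125 to 200 kDa these shares were 5.30% and 7.87%. None of the 30 significant tag-only peaks in ENAH overlapped a significant RBFOX2 peak, where 0.450% of significant tag-only peaks did over the whole lists, so this too is near the background.

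**Figure D5:**
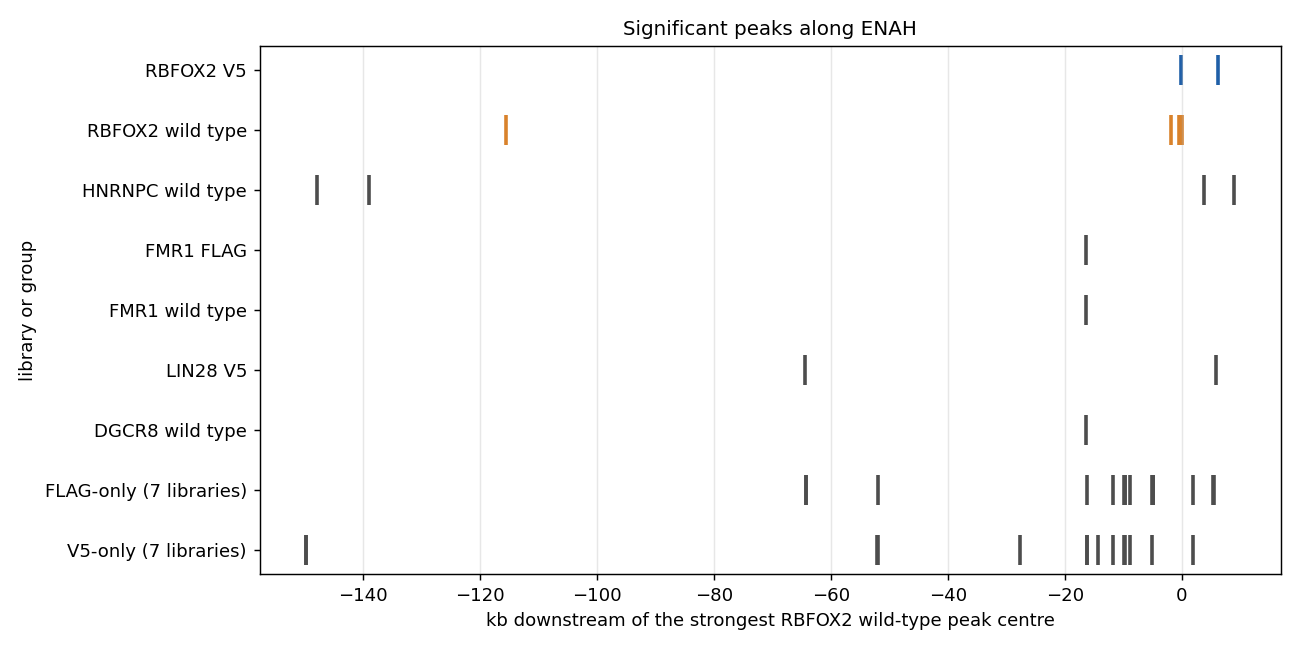
Position of each significant peak along ENAH (x axis, kb downstream of the strongest RBFOX2 wild-type peak) for each library or group with any (y axis), 1 tick per peak. RBFOX2 peaks gather near 0 with a V5 peak about 6 kb downstream and a single wild-type peak far upstream, and FLAG-only and V5-only peaks lie mostly in the 20 kb upstream of 0.

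In MAP3K7 the 100 called peaks of tag-only libraries held 0 significant ones, and in PFDN1 and PTBP2 the 11 called peaks each held 0. In SNAP47 1 of 31 was significant, in FLAG-only at 100 to 175 kDa with a log2 fold of 3.19, and in SCAP 5 of 67 were, all of them FLAG-only. The log2 folds of these SNAP47 and SCAP peaks lay between 3.04 and 4.06. Over the whole lists 7.76% of FLAG-only and 3.14% of V5-only peaks were significant, and nothing is read from such small numbers per gene. Peaks were counted on the gene's strand. In the GENCODE annotation of GRCh38, used here for names only, no other gene overlapped any of the 6 on the same strand, and JMJD4, SNAP47-AS1, CYSTM1 and a pseudogene overlapped SNAP47, PFDN1 or SCAP on the opposite strand.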

How the data were processed

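Per the submitters' processing notes, reads were handled with cutadapt, STAR, GATK, Picard and SAMtools on the build hg19, with no versions given. No caller of peaks is named in the sources used here. The deposited lists have no header and give each peak a −log10 p value, capped by the authors at 400, and a log2 fold of immunoprecipitation over size-matched input. Peaks were called per library. Positions were made 1-based. Significant peaks reached 3 in both values. Overlaps needed 1 nt on the same strand, and significant RBFOX2 peaks at most 50 nt apart were merged into sites. Significant peaks of the other libraries were merged into regions at the same distance. Shares carry 95% Wilson intervals. Overlap and merging were tested on simulated intervals. Python 3.11.15, pandas 2.3.3, SciPy 1.17.1 and matplotlib 3.10.9 were used. At most the 5 sites of highest fold per gene were named, with any site called in other libraries. The members, lists and thresholds were chosen with earlier results of these data known. A motif search, exon positions, similar genes and other known RBFOX target genes, all planned only for an hg19 genome or annotation, were not analysed here.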

Additional observations from a re-analysis of the deposited data

Results flagged for a closer look

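In 7 of the 20 sets of 7 tag-only libraries examined, 1 library stood far from the other 6. Chance flags about 1 in 20 sets of continuous values, and this rate does not hold for these small numbers, where a single peak against 0 in the other libraries is always picked out. The sets also overlap, since counts in all 6 genes contain those in ENAH. In the range of 125 to 200 kDa, FLAG-only had 9 significant peaks in ENAH and 10 in all 6 genes, and V5-only had 7 in ENAH and 7 in all 6 genes, while no other tag-only library had more than 3 in either. These libraries also had the highest shares of significant peaks over the genome, 22.1% in FLAG-only and 11.5% in V5-only, and the part of this in the ENAH counts was not tested. The remaining values are small numbers. FLAG-only at 100 to 175 kDa had 1 significant SNAP47 peak where the other 6 FLAG-only libraries had 0, and FLAG-only at 25 to 100 kDa had 4 called peaks in PFDN1 and 1 in PTBP2.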

How the results depend on the processing

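The numbers of significant RBFOX2 peaks stayed within 1.5 times. With the −log10 p raised to 5 the 6 genes held 25 significant peaks in RBFOX2 V5 and 31 in RBFOX2 wild type, and with the log2 fold lowered to 2 they held 31 and 41. The number of sites, 19 as reported, ran from 14 to 28 over these thresholds and merging distances of 0 and 200 nt. With at least 50% of both peaks shared, overlap fell to 59.3% of RBFOX2 V5 and 45.7% of RBFOX2 wild-type peaks, fewer by construction. Significant peaks of other RBP libraries numbered 9 at the stricter p and 50 at the looser fold, and those of tag-only libraries 22 and 122. Without the libraries of 125 to 200 kDa, an alternative chosen after seeing the data, tag-only libraries had 19. Counting only peaks wholly inside the windows left the numbers of peaks and sites and both overlap shares as they were. With 1 library per RBP and tag state, a real difference between antibodies cannot be told apart from one between libraries. No paired test was made, since no result came from a test, and the folds at overlapping pairs of RBFOX2 peaks are a description. The labels number no replicates, and FLAG-only and V5-only libraries share gel ranges, for which the report sets their values side by side. By the labels each gel range has 1 input for both antibodies. The motif alternatives were not run.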

Other observations

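Regions of ENAH were significant in libraries of several kinds and in neither RBFOX2 library. The one shared most widely, at 225706899 to 225707200 on chromosome 1, held significant peaks of 6 libraries, merged where at most 50 nt apart. These were FMR1 FLAG and FMR1 wild type, with log2 folds of 3.23 and 3.81, DGCR8 wild type with 3.78, FLAG-only at 125 to 200 kDa with 3.04, and V5-only at 100 to 175 and 125 to 200 kDa with 3.46 and 3.20. The 2 FMR1 peaks began at 225707071 and 225707073 and overlapped none of the other peaks, the last of which ended at 225707027. The region lay 14354 nt from the nearest significant RBFOX2 peak. A second region, at 225695653 to 225695719, was significant in 4 tag-only libraries and in no RBP library. In SCAP a region at 47459266 to 47459357 was significant in 3 FLAG-only libraries, of the ranges from 125 to 250 kDa, with log2 folds of 3.06, 4.06 and 3.68, and in 0 V5-only libraries. These ranges overlap one another, and the regions were chosen for their number of libraries after the values were seen.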
